A study of Mus musculus with 12 samples.

Results

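The proteasome subunit genes described here are the rows of the deposited expression table whose symbol starts with Psm, a letter from a to g and a number. Of 23420 genes in the table, 49 matched. One of them, Psmc3ip, matches by spelling only and encodes no proteasome subunit, which left 48 proteasome genes. By name they comprise 8 alpha and 7 standard beta subunits of the core particle, 4 inducible or thymic beta subunits, 6 ATPases and 11 non-ATPase subunits of the regulatory particle, 3 further genes named Psmd, 5 activator or inhibitor genes and 4 chaperones of core assembly. In 45 of the 48, a value of at least 10 was reached in at least 3 libraries, and these 45 were tested.

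The study measured RNA in lineage-negative c-Kit+ cells sorted from mouse fetal liver, in tubes of 100 cells, as 12 libraries with 3 in each of 4 groups: PIR+ KO, PIR+ wt, PIR- KO and PIR- wt. PIR is the paired immunoglobulin-like receptor. The labels give neither the gene knocked out nor the strain, and the loss of the gene was not checked. Whether the 3 libraries of a group stem from separate animals is not stated, so p-values reflect only how far these samples spread, which may be technical. The values are molecule counts divided by the authors by a factor per library, called normalised molecule counts here. Each molecule was tagged at its poly(A) end, so the values are not per length and levels are not compared between genes.

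The labels conflict. The group was taken from the sample title, while the field for sort markers states the reverse PIR sign for 6 of the 12 libraries. The embryonic stage, E12.5 or E14.5, goes with the PIR sign of that field in all 12. As labelled, each group holds both stages. E14.5 is given for PIR+ KO 1 and 2, PIR+ wt 3, PIR- KO 2 and 3 and PIR- wt 1. The others are labelled E12.5, so stage is uneven between KO and wt. Whether the stage is right where the field conflicts with the title was not tested. If the stage instead went with the sign in the title, subset and stage could not be told apart in any comparison of subsets. The titles were in accord with the receptor genes: Pira1, Pira2 and Lilrb3, which encodes PIR-B, were all above 0 in the 6 libraries titled PIR+ and listed at 0 in the 6 titled PIR-. The series title names the PIR- cells as IL7R-, whereas the sort markers are IL7Ra+ for all 12, and Il7r was at 9.7 to 20.3 in the PIR+ libraries and 16.1 to 24.4 in the PIR- libraries. Kit was above 0 in all 12 libraries. Subset counts and the calls made on both scales are given also for the 6 libraries whose sort markers and title have the same sign (PIR+ KO 3, PIR+ wt 1 and 2, PIR- KO 2 and 3, PIR- wt 1). There the lone PIR+ KO and PIR- wt libraries are assumed to vary like the others. In these 6, every PIR+ library is E12.5 and every PIR- library is E14.5, so subset and stage cannot be told apart there. The sums of the deposited values per library were 216841 to 284648 in PIR+ KO, 203135 to 253582 in PIR+ wt, 169949 to 222700 in PIR- KO and 155374 to 187525 in PIR- wt, so most genes were higher in PIR+ than in PIR- on this scale. Fewer cells of a type and less RNA per cell cannot be told apart in these bulk values. Every comparison was therefore repeated after median-of-ratios scaling, which sets the median gene near no change. A gene called on both scales passed an adjusted p of 0.05 in each with the same sign. Libraries of the 2 subsets also differed in markers of cell types. Whether the sorted progenitors themselves or other cells gave these markers was not tested. The summed B-lineage markers, 10 genes, were at 15.2 to 26 in PIR+ KO, 25 to 41.9 in PIR+ wt, 735.6 to 1158.6 in PIR- KO and 864.3 to 1159.3 in PIR- wt. Of 9 macrophage and monocyte markers, Cd14 was at 0 in all libraries, and the sum was 34.6 to 67 in PIR+ KO, 27.1 to 31.9 in PIR+ wt, 5.5 to 9.3 in PIR- KO and 1.1 to 2 in PIR- wt. Hba-a1, an adult alpha-globin gene of red cells, exceeded 300 in 5 libraries (PIR+ KO 1, PIR+ wt 3, PIR- KO 1, PIR- wt 2 and 3), here called globin-rich. All 5 are among the 6 with conflicting labels, so both ways of leaving libraries out compare the same wt libraries (PIR+ wt 1 and 2 with PIR- wt 1) and, for wt, are 1 contrast and not separate checks. That wt contrast is also E12.5 against E14.5. The 13 erythroid markers summed to 32.6 to 1823.4 in PIR+ KO, 30.5 to 896.9 in PIR+ wt, 40.8 to 1379.8 in PIR- KO and 172.4 to 1613.7 in PIR- wt, and the 10 hepatocyte markers to at most 27.8 in PIR+ KO, 27.6 in PIR+ wt, 26.8 in PIR- KO and 70.3 in PIR- wt. The part of these cell types in the results below was not tested.

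The proteasome is the protease that degrades ubiquitin-tagged proteins in the cytosol and nucleus. Its core particle is a barrel of stacked rings, in which alpha subunits gate the entry and beta subunits carry the active sites, and a regulatory particle of ATPases and non-ATPases recognises, unfolds and feeds in the substrate. In immune cells and under interferon, the catalytic subunits Psmb5, Psmb6 and Psmb7 are exchanged at assembly for Psmb8, Psmb9 and Psmb10, which gives the immunoproteasome, and the activator made of Psme1 and Psme2 can cap the core. These inducible forms are known for producing peptides for presentation by MHC class I.

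Because groups of these genes are known to be transcribed through shared promoter elements, their start regions are shown before the values. RefSeq (GRCm38.p6) gives a sequence from 250 bases before to 50 bases after the start for 40 of the 48 genes and for 27025 genes in all. The 6 shown are the activator pair and the inducible subunits that led the subset difference (Psme1, Psme2, Psmb8, Psmb10), the standard counterpart of Psmb8 (Psmb5) and Psma2. Psma2 was picked as the member with the highest mean among those that hold the ETS core named below. Its ETS match was therefore fixed by the choice. They lie at chr14:55578244-55578543 (plus strand) for Psme1, chr14:55591052-55591351 (minus) for Psme2, the first of 2 listed, chr17:34197945-34198244 (plus) for Psmb8, chr8:105938343-105938642 (minus) for Psmb10, chr14:54617946-54618245 (minus) for Psmb5 and chr13:14612992-14613291 (plus) for Psma2. Each runs 5′ to 3′ in the direction of the gene. Capitals mark exact matches, on either strand, to 5 motifs: the ETS core CCGGAA, the antioxidant response element core TGACNNNGC, the CCAAT box, the interferon-stimulated response element core GAAANNGAAA and the gamma-activated site core TTCNNNGAA. The last 2 were added after values were seen.
Psme1: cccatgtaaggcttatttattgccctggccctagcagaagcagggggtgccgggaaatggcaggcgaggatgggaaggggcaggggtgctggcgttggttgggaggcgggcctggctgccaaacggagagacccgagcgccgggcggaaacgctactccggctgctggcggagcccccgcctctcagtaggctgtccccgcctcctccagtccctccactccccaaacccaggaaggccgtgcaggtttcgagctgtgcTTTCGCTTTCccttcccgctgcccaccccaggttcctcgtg
Psme2: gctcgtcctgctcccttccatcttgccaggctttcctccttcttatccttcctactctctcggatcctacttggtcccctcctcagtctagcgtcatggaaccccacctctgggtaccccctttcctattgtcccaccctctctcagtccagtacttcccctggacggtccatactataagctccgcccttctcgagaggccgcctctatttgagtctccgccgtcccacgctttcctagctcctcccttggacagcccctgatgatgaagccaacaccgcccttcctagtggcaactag
Psmb8: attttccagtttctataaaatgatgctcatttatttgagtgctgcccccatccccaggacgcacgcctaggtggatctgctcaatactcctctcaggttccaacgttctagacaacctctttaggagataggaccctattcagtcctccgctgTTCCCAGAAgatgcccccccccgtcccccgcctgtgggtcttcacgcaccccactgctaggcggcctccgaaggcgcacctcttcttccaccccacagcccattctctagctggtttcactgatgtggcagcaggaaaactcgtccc
Psmb10: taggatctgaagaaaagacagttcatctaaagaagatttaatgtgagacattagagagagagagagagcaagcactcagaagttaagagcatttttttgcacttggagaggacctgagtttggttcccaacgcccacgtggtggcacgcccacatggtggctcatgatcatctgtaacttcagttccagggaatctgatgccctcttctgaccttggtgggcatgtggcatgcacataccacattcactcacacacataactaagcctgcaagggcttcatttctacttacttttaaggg
Psmb5: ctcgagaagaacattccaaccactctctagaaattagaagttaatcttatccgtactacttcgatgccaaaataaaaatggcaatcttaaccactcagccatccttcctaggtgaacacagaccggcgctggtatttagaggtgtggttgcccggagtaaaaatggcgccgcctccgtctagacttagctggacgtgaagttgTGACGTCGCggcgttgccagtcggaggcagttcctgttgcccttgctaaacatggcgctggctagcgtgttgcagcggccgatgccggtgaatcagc
Psma2: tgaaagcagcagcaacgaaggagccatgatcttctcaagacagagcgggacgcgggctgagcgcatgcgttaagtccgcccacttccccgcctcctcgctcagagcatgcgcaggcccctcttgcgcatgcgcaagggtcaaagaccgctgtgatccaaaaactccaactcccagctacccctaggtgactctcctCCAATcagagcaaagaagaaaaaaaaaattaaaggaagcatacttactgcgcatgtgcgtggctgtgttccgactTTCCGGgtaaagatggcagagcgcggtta

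The ETS core was found in 20 of the 40 promoters (50%), against 16.7% of all genes with a promoter sequence. It stood in 4 of 5 base ATPase promoters and in 0 of 4 promoters of the inducible and thymic beta subunits. The antioxidant response element core, the letters that NFE2-related factors bind, occurred in 6 of 40 (15%), against 14.0% of all genes, Psmb5 and Psmb6 among them. CCAAT stood in 14 (35%), against 41.1% of all genes. The interferon-stimulated response element core was present in 5 of 40, against 3.99% of all genes: Psmb3, Psmd4, Psmd9, Psme1 and Psmg4. The gamma-activated site core was in 3 (7.5%), against 9.55% of all genes, and Psmb8 was one of them. Psme2 and Psmb10 held none of the 5 motifs in this window. The RefSeq starts of Psme1 and Psmb8 lie inside the genes as GENCODE M21 draws them, so the windows cover one start of each. The shares of all genes are over all 27025 genes with a promoter sequence, expressed in these cells or not. Shares among the 4542 tested genes were not computed, so a difference is not read as particular to proteasome genes. A match is a description of letters and not a binding site.

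Proteasome genes as a whole made up 0.780% to 0.905% of the library sum, apart between the subsets in wt and overlapping in KO. Their summed value was 0.845% to 0.852% of the library sum in PIR+ KO, 0.844% to 0.905% in PIR+ wt, 0.796% to 0.868% in PIR- KO and 0.780% to 0.809% in PIR- wt. Within the catalytic subunits the makeup differed more. Psmb8, Psmb9 and Psmb10 together were 27.9% to 28.4% of the summed value of the 6 catalytic genes in PIR+ KO, 31.4% to 35.1% in PIR+ wt, 19.6% to 24.4% in PIR- KO and 18.2% to 23.5% in PIR- wt. All 6 PIR+ libraries were above all 6 PIR- libraries, and the PIR+ KO libraries were below the PIR+ wt libraries without overlap. Taken singly, Psmb8, Psmb9 and Psmb10 each overlapped between PIR+ KO and PIR+ wt, and none was called there. Of all genes tested, 3.04% were lower in PIR+ KO than in PIR+ wt without overlap. The gap in the summed share was not tested. The shares of summed values mix genes of different length and are compared between libraries only.

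**Figure D1:**
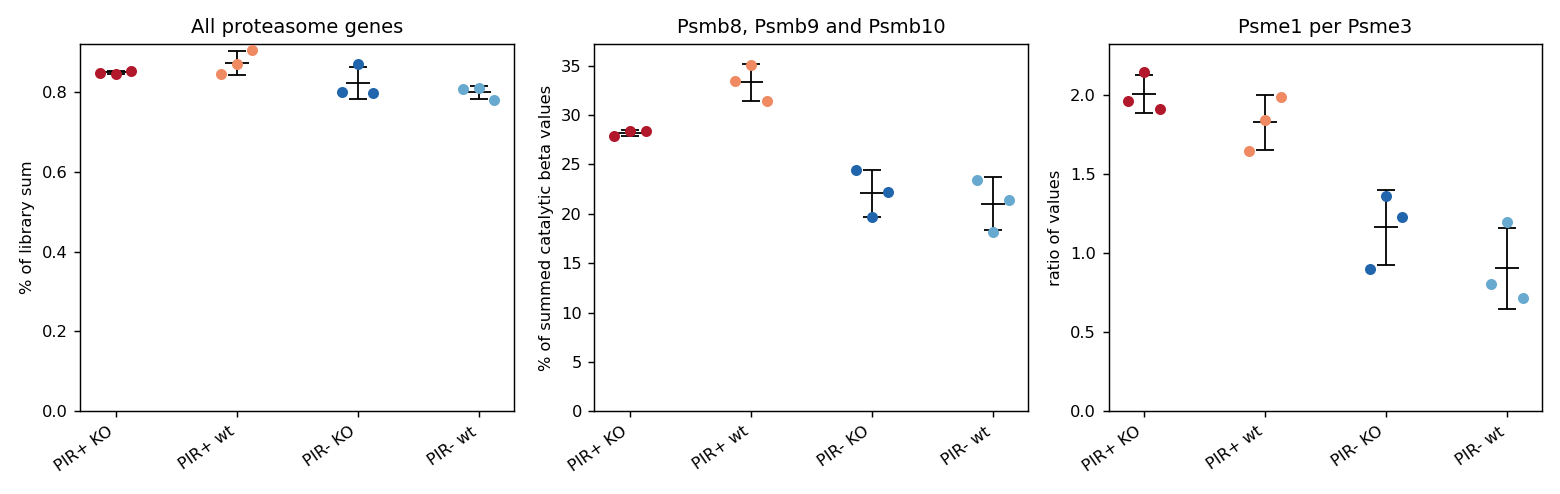
Share of the library sum in all proteasome genes (%), share of Psmb8, Psmb9 and Psmb10 in the summed values of Psmb5 to Psmb10 (%), and ratio of Psme1 to Psme3, for the 4 groups; points are libraries, bars are the mean and SD (n = 3). The overall share spans 0.780% to 0.905% and is apart between the subsets in wt only. The inducible share is 27.9% or more in every PIR+ library and 24.4% or less in every PIR- library.

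In wild type, the activator gene Psme1 and the inducible core subunits Psmb8 and Psmb10 were higher in PIR+ than in PIR- cells, by 1.27 ± 0.20, 1.32 ± 0.22 and 1.41 ± 0.25 on the log2 scale (± SE of the fit, n = 3 each). Most other proteasome genes also had positive changes on the deposited scale, about as large as that of the median gene. limma called 21 of the 45 tested genes higher in PIR+ wt than in PIR- wt (46.7%), against 40.6% of all 4542 genes tested, and 0 lower, against 3.72%. Their median log2 fold change was 0.49, beside 0.51 over all genes tested, and 20 of the 45 lay above that median gene. After median-of-ratios scaling 5 were higher, against 11.5% of all genes, and Psma6 alone was lower, against 11.0%. The same 5, Psme1, Psmb8, Psmb10, Psmg4 and Psma1, were called on both scales (11.1%, against 11.5% of all genes). As a count of genes called higher, the proteasome genes were thus near the background on either scale. In either direction after scaling, 6 of 45 were called (13.3%), against 22.6% of all genes. Without overlap between groups, 24 of 45 were higher in PIR+ wt than in PIR- wt, against 47.6% of all genes, and 0 were lower, against 4.36%. The count of 21 became 9 in the libraries whose labels match (23.2% of all genes were called there, in either direction), 4 without the globin-rich libraries (15.4%), 11 without PIR+ wt 3 (29.1%) and 12 without PIR- wt 2 (34.1%). In the authors' deposited table, whose header does not say whether p is adjusted, 5 of 45 members had p under 0.05 for this comparison (11.1%), against 18.7% of all tested genes. These were Psme1, Psmb8, Psmb10, Psma6 and Psmg4, while Psma1 had p = 0.11 in the authors' deposited table.

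In KO, Psme2, Psme1 and Psmb10 were higher in PIR+ than in PIR- cells, by 1.07 ± 0.22, 0.89 ± 0.20 and 0.96 ± 0.25 on the log2 scale (± SE, n = 3 each). limma called 9 of 45 higher in PIR+ KO than in PIR- KO (20%), against 22.5% of all genes tested, and 0 lower, against 2.97%. The median was 0.32, beside 0.39 over all genes tested. After scaling 3 were higher, against 8.12% of all genes, and Psma6 was lower, against 7.51%. The 3, Psme1, Psme2 and Psmb10, were called on both scales (6.67%, against 8.12% of all genes). Without overlap, 15 of 45 were higher, against 35.7% of all genes, and 0 were lower, against 3.43%. The count of 9 became 4 without the globin-rich libraries (12.7% of all genes were called there, in either direction), 5 without PIR+ KO 3 (14.6%) and 5 without PIR- KO 1 (15.9%). The scaled count of 4, where 15.6% of all genes were called in either direction, became 0 without PIR+ KO 2 (11.9% of all genes). It became 2 without PIR+ KO 3 (12.2%) or PIR- KO 1 (12.9%), and 1 without PIR- KO 3 (12.1%).

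**Figure D2:**
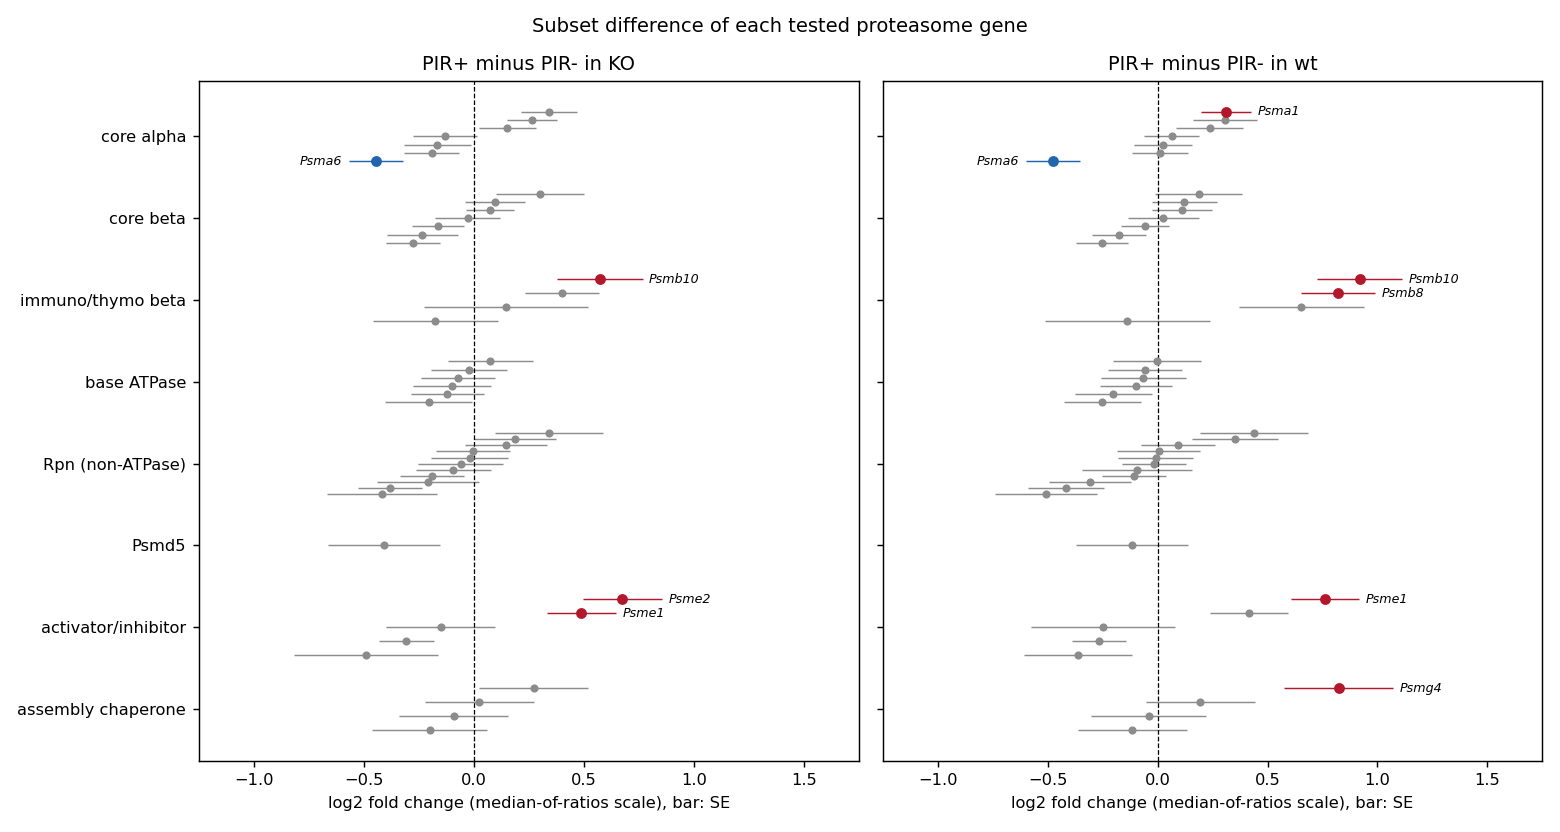
Log2 fold change of PIR+ minus PIR- after median-of-ratios scaling for the 45 tested genes by subclass, in KO and in wt; bars are the SE of the fit, red points are called on both scales and blue ones on the scaled values only. Psmb10 and Psme1 stand right of 0 in both panels, Psme2 is called in KO only and Psmb8, Psmg4 and Psma1 in wt only, and Psma6 stands left of 0 in both.

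Psme1 encodes the alpha subunit of the ring-shaped activator that opens the core (chromosome 14, 55578123 to 55581529, plus strand, GRCm38). It was at 101.2, 117.5 and 151.3 normalised molecule counts in PIR+ KO, 92, 123.6 and 126.8 in PIR+ wt, 48.2, 76.1 and 75.7 in PIR- KO and 39.2, 61.2 and 41.1 in PIR- wt. Every PIR+ library was above every PIR- library. Its PIR+ minus PIR- change was 0.89 ± 0.20 in KO (limma adjusted p = 0.000314) and 1.27 ± 0.20 in wt (adjusted p = 1.35e-07), and after scaling 0.49 in KO (adjusted p = 0.031) and 0.76 in wt (adjusted p = 0.0005). The wt call held on both scales without each library in turn, without the globin-rich libraries (scaled 0.88, adjusted p = 0.000217) and in the libraries whose labels match (scaled 0.88, adjusted p = 0.000711). The scaled KO call was lost without PIR+ KO 2 (adjusted p = 0.13), PIR+ KO 3 (0.115), PIR- KO 1 (0.182) or PIR- KO 3 (0.0813), and in the libraries whose labels match (0.151). Psme1 overlaps Emc9 on the opposite strand by 14 bases.

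Psme2, which encodes the beta subunit of the same activator, lies near Psme1 (chromosome 14, 55587441 to 55591113, minus strand). Its normalised molecule counts were 52.7, 52.4 and 52.5 in PIR+ KO, 38.7, 65.8 and 54.2 in PIR+ wt, 20.7, 29.4 and 24.2 in PIR- KO and 20.7, 30.2 and 31 in PIR- wt. The subsets did not overlap in either genotype. The change was 1.07 ± 0.22 in KO (limma adjusted p = 9.23e-05, scaled 0.68 with adjusted p = 0.0079) and 0.92 ± 0.22 in wt (adjusted p = 0.000581, scaled 0.42 with adjusted p = 0.0974). The scaled KO call was lost without PIR+ KO 2 (adjusted p = 0.0601) or PIR- KO 3 (0.0623) and in the libraries whose labels match (0.449). Reads of Psme2 could be shared with its close copy Psme2b, which was not analysed here.

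The other genes of this class passed no test between subsets. Psme3, which encodes the nuclear activator that forms a ring of its own, was at 51.5, 54.8 and 79.1 in PIR+ KO, 55.8, 67.1 and 63.7 in PIR+ wt, 53.5, 55.9 and 61.7 in PIR- KO and 48.8, 51.1 and 57.4 in PIR- wt, and the groups overlapped. The ratio of Psme1 to Psme3 was 1.91 to 2.14 in PIR+ KO, 1.65 to 1.99 in PIR+ wt, 0.901 to 1.36 in PIR- KO and 0.716 to 1.20 in PIR- wt, without overlap between subsets. Psme4, the monomeric activator, and Psmf1, an inhibitor, were not called in any comparison, with subset changes for Psme4 of 0.23 in KO and 0.12 in wt and for Psmf1 of -0.13 in KO and 0.19 in wt.

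Among the inducible beta subunits, Psmb8 (chromosome 17, 34197721 to 34201454, plus strand), which replaces Psmb5 with its chymotrypsin-like site, was at 42.4, 37.7 and 51.7 in PIR+ KO, 42.5, 68.4 and 65.1 in PIR+ wt, 26, 21.3 and 27.2 in PIR- KO and 24.9, 18.6 and 24.1 in PIR- wt. No PIR+ library was as low as a PIR- library. The change was 0.79 ± 0.22 in KO (limma adjusted p = 0.00496) and 1.32 ± 0.22 in wt (adjusted p = 9.8e-07), and after scaling 0.40 in KO (adjusted p = 0.112) and 0.82 in wt (adjusted p = 0.000508). The scaled wt call held without each library in turn but not without the globin-rich libraries (0.55, adjusted p = 0.155) or in the libraries whose labels match (0.55, adjusted p = 0.198). Psmb5 itself (chromosome 14, 54614119 to 54618022, minus strand) was at 83, 73.4 and 93.5 in PIR+ KO, 66.6, 82.9 and 105.8 in PIR+ wt, 53, 65.2 and 58 in PIR- KO and 60.4, 51.9 and 50.4 in PIR- wt. The subsets did not overlap, and limma called it in wt on the deposited scale (0.62 ± 0.20, adjusted p = 0.00807), though not without PIR+ wt 3 (adjusted p = 0.105). Its scaled change was 0.10 in KO and 0.11 in wt, neither called. The ratio of Psmb8 to Psmb5 was 0.511 to 0.553 in PIR+ KO, 0.615 to 0.825 in PIR+ wt, 0.327 to 0.491 in PIR- KO and 0.358 to 0.478 in PIR- wt. All 4 ranges of this ratio were apart except those of the PIR- groups.

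Psmb10 (chromosome 8, 105935735 to 105938444, minus strand), the inducible subunit with trypsin-like activity in place of Psmb7, was at 27.3, 28.9 and 39.5 in PIR+ KO, 26, 34.9 and 38 in PIR+ wt, 14.8, 16.1 and 16.2 in PIR- KO and 14.3, 10.1 and 10.9 in PIR- wt. The subsets were well apart in both genotypes. Its change was 0.96 ± 0.25 in KO (limma adjusted p = 0.00211, scaled 0.57 with adjusted p = 0.0442) and 1.41 ± 0.25 in wt (adjusted p = 2.66e-06, scaled 0.92 with adjusted p = 0.000713). Its wt call was lost without the globin-rich libraries (adjusted p = 0.0533, after scaling 0.286) and, scaled, in the libraries whose labels match (0.342). The scaled KO call was lost in 8 of 12 fits without 1 library, namely any of the 6 KO libraries or PIR+ wt 2 or 3 (adjusted p up to 0.156), and in the libraries whose labels match (0.157). Psmb7 (chromosome 2, 38588036 to 38644087, minus strand) was at 64.2, 58.8 and 92.8 in PIR+ KO, 47.6, 59.8 and 88.8 in PIR+ wt, 56.1, 63.4 and 69.8 in PIR- KO and 41.3, 54.2 and 36.5 in PIR- wt, with overlap between subsets in both genotypes. Its wt call on the deposited scale (0.53 ± 0.21, adjusted p = 0.0316) was lost without PIR+ wt 2 (0.052), PIR+ wt 3 (0.33), PIR- wt 1 (0.0913) or PIR- wt 3 (0.122). The ratio of Psmb10 to Psmb7 was 0.425 to 0.491 in PIR+ KO, 0.428 to 0.584 in PIR+ wt, 0.232 to 0.264 in PIR- KO and 0.186 to 0.346 in PIR- wt.

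The third pair was less even. Psmb9 (chromosome 17, 34181987 to 34187764, minus strand), which replaces Psmb6, was at 10.3, 9.3 and 13.7 in PIR+ KO, 15.9, 7.9 and 16.3 in PIR+ wt, 9.5, 8.1 and 11 in PIR- KO and 5.3, 6.2 and 4.7 in PIR- wt. The wt groups did not overlap, while the KO groups did. limma called it higher in PIR+ wt than in PIR- wt (1.11 ± 0.32, adjusted p = 0.00403, scaled 0.65 with adjusted p = 0.104) but not in KO (0.19 ± 0.32, adjusted p = 0.664). The wt call was lost without the globin-rich libraries (adjusted p = 0.164) and in the libraries whose labels match (0.119). The difference between these changes was itself not called (-0.92 ± 0.46, adjusted p = 0.885). Psmb9 overlaps Tap1 by 212 bases on the opposite strand, and whether counting used the strand is not given in the sources used here. Psmb6 (chromosome 11, 70525367 to 70527858, plus strand) was at 60, 59.2 and 78.3 in PIR+ KO, 53.9, 63.1 and 66.4 in PIR+ wt, 46.6, 57.7 and 63.2 in PIR- KO and 43.5, 51.1 and 59 in PIR- wt. Its change of 0.23 in KO and 0.26 in wt was not called and turned to -0.16 and -0.25 after scaling. GENCODE M21 also lists pseudogenes of Psmb5, Psmb6 and Psmb7, with which reads could be shared. Psmb7 overlaps Nek6 and Psmb8 and Psmb10 overlap Gm20496 and Gm16156, all on the opposite strand.

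**Figure D3:**
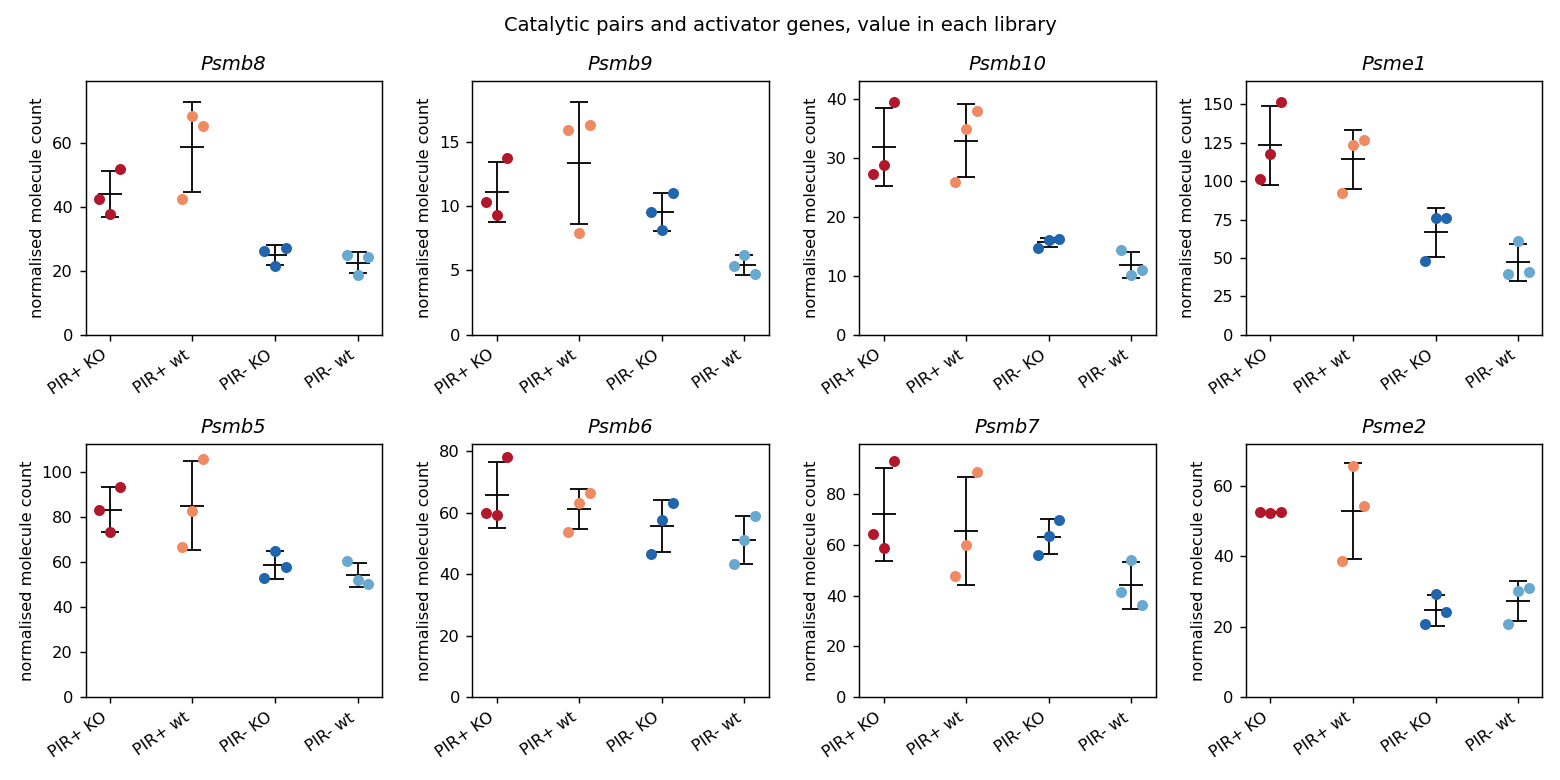
Normalised molecule count in each library for the inducible subunits (Psmb8, Psmb9, Psmb10) above their standard counterparts (Psmb5, Psmb6, Psmb7), and for Psme1 above Psme2, in the 4 groups; points are libraries, bars are the mean and SD (n = 3). PIR+ points of Psmb8, Psmb10, Psme1 and Psme2 lie above all PIR- points, while those of Psmb6 and Psmb7 overlap.

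Psmb11, the subunit of the thymoproteasome known from cortical thymic epithelium, was listed above 0 in all 12 libraries, at 8, 7.7 and 15.6 in PIR+ KO, 8.8, 12.8 and 5.3 in PIR+ wt, 7.5, 2.7 and 13.5 in PIR- KO and 6.2, 6.6 and 7.1 in PIR- wt. The groups overlapped and no comparison called it. Low values in a library mostly fall on multiples of 1 step, taken as 1 molecule, which was 0.490 to 0.775 per library. Of the 11 Psmb11 values under 15, all 11 lay off the step by more than the rounding tolerance, compared with 1 of 12 for Psmd9 and 0 for the other members with values under 15. These Psmb11 values are thus not whole numbers of that step, and the reason was not tested.

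The remaining core genes changed about as much as the median gene. Of 7 tested alpha subunits, 6 were called higher in PIR+ wt than in PIR- wt and 3 higher in PIR+ KO than in PIR- KO, and of 7 standard beta subunits 5 were called in wt and 1 (Psmb2) in KO, where 40.6% of all genes were called higher in wt and 22.5% in KO. After scaling, none of the standard beta subunits and only Psma1 among the alpha subunits was still higher. Psma1 was at 76.9, 70.5 and 99.6 in PIR+ KO, 73, 84.2 and 94.9 in PIR+ wt, 40.8, 53.6 and 61 in PIR- KO and 43.5, 45.7 and 52 in PIR- wt, with no overlap between subsets. Its change was 0.66 ± 0.20 in KO (limma adjusted p = 0.00879, scaled 0.26 with adjusted p = 0.123) and 0.82 ± 0.20 in wt (adjusted p = 0.000614, scaled 0.31 with adjusted p = 0.0499). The scaled wt call was lost in 11 of 12 fits without 1 library, all but that without PIR- KO 1 (adjusted p 0.0518 to 0.126), without the globin-rich libraries (0.364, and 0.0638 on the deposited scale) and in those whose labels match (0.414). Psma2, the alpha subunit with the highest mean, was at 103.6, 73.9 and 117.9 in PIR+ KO, 84.4, 91.4 and 128.1 in PIR+ wt, 74.1, 91.7 and 86 in PIR- KO and 59.9, 72 and 68.3 in PIR- wt. The wt groups were apart and the KO groups overlapped. It was called in wt on the deposited scale only (0.58 ± 0.19, adjusted p = 0.0123), and it shares 8943 bases with AW209491 on the same strand. Psmb1, the standard beta subunit with the highest mean, was at 103.6, 101.9 and 138.4 in PIR+ KO, 91.4, 94.7 and 130.2 in PIR+ wt, 78.4, 76.7 and 89.6 in PIR- KO and 69.4, 67.4 and 92.3 in PIR- wt, and its scaled changes were 0.08 in KO and -0.06 in wt.

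Psma6 was the one proteasome gene called lower after scaling. It was at 54.5, 45.5 and 69.2 in PIR+ KO, 45.7, 50.6 and 66.4 in PIR+ wt, 50.8, 55.4 and 67.6 in PIR- KO and 47.2, 54.2 and 55.9 in PIR- wt. On this deposited scale the subsets overlapped fully and its change was -0.05 in KO and 0.03 in wt, neither called. Relative to the median gene it was lower, at -0.44 ± 0.12 in KO (limma adjusted p = 0.012) and -0.47 ± 0.12 in wt (adjusted p = 0.00541). The scaled wt call held without each library in turn (adjusted p 0.00462 to 0.0288) but was lost without the globin-rich libraries (0.0906) and in the libraries whose labels match (0.112). The scaled KO call was lost without PIR+ KO 2 (adjusted p = 0.0702), without the globin-rich libraries (0.0583) and in the libraries whose labels match (0.391). Psma6 was named after its values were seen.

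None of the 6 base ATPases, the motor subunits that unfold substrates, was called in either genotype. Of all genes, 40.6% were called higher in wt and 22.5% in KO. Their changes ran over 0.18 to 0.47 in KO and 0.25 to 0.49 in wt, and medians were 0.31 in KO and 0.42 in wt, below the median gene. Psmc1, with the highest mean among them, was at 35.7, 42.1 and 50.9 in PIR+ KO, 34.9, 40.1 and 52.2 in PIR+ wt, 24.9, 33.4 and 51.4 in PIR- KO and 28.1, 27.1 and 40.3 in PIR- wt, with overlap in both genotypes. Of 11 non-ATPase subunits of the regulatory particle, Psmd4 was called higher in both genotypes and Psmd1 and Psmd6 in wt, on the deposited scale only. These are 3 of 11 in wt and 1 of 11 in KO, beside 40.6% and 22.5% of all genes. Psmd4 encodes a ubiquitin receptor. It was at 26.1, 23.5 and 25.9 in PIR+ KO, 17.8, 19.7 and 13.6 in PIR+ wt, 11.1, 17.3 and 16.9 in PIR- KO and 9, 5.4 and 12.4 in PIR- wt, without overlap between subsets within either genotype. Psmd1, a scaffold subunit of the base, was at 59.4, 43.6 and 65.4 in PIR+ KO, 47.6, 33.5 and 59.7 in PIR+ wt, 39.7, 46.1 and 40.4 in PIR- KO and 31.8, 27.1 and 31 in PIR- wt, apart in wt and overlapping in KO. It overlaps Htr2b on the opposite strand. Psmd14, the deubiquitinase that removes ubiquitin chains at the entry, changed by 0.21 ± 0.22 in KO (adjusted p = 0.482) and 0.49 ± 0.22 in wt (adjusted p = 0.0575).

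Of the 4 chaperones that build the core, Psmg4 and Psmg1 were called higher in PIR+ wt than in PIR- wt, and none was called in KO. Of all genes, 40.6% were called higher in wt and 22.5% in KO. Psmg4 (chromosome 13, 34162964 to 34178173, plus strand), which pairs with Psmg3 to hold alpha subunits during ring assembly, was at 17.6, 17.1 and 23.6 in PIR+ KO, 17.1, 20.4 and 27.8 in PIR+ wt, 13.2, 15 and 14.7 in PIR- KO and 11.1, 4.6 and 10.1 in PIR- wt. The subsets were apart in both genotypes, least so in KO. The wt change was 1.30 ± 0.28 (limma adjusted p = 0.000129, scaled 0.82 with adjusted p = 0.0159), and the KO change 0.41 ± 0.28 (adjusted p = 0.272). PIR- wt 2, a globin-rich library, was the lowest of all at 4.6, and without it the scaled wt change was 0.48 (adjusted p = 0.146). The scaled call was also lost without PIR+ wt 3 (0.0835), without the globin-rich libraries (0.787) and in those whose labels match (0.809), and on the deposited scale in the last 2 cases as well (0.238 and 0.165). The difference between the KO and wt changes was not called (-0.89 ± 0.40, adjusted p = 0.75). Psmd5, a chaperone of the base and the only tested gene of its class, was at 16.4, 7.8 and 16.7 in PIR+ KO, 10.2, 15.8 and 15.6 in PIR+ wt, 12.2, 10.4 and 18.4 in PIR- KO and 10.6, 8.5 and 12.4 in PIR- wt, and was not called.

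**Figure D4:**
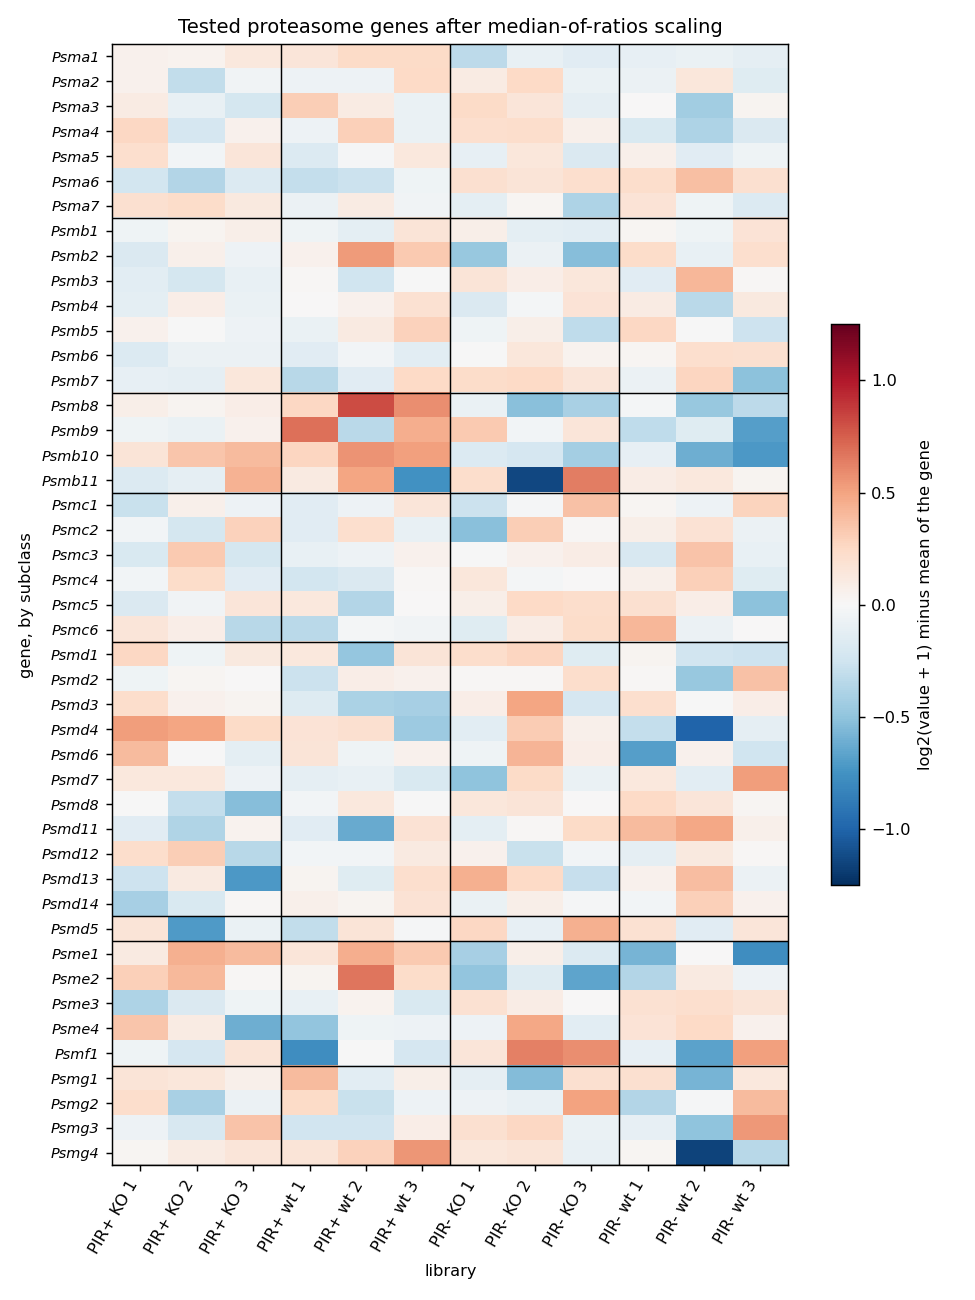
Log2(value + 1) after median-of-ratios scaling, minus the mean of each gene, for the 45 tested proteasome genes (rows, by subclass) in 12 libraries (columns, by group); red is above and blue below the gene's mean. Psmb10 and Psme1 are red over the PIR+ libraries and Psmb8 over those of PIR+ wt, Psma6 is mostly blue over PIR+, and most other rows show no block by group.

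limma called no proteasome gene between KO and wild-type cells. In PIR+ cells, 0 of 45 were called (0.903% of all genes were), and the median was 0.10, beside 0.09 over all genes tested. An unadjusted p under 0.05 was found for 1 of 45, against 313 of all 4542 genes tested. After scaling 0 were called (1.01% of all genes) and 3 had an unadjusted p under 0.05, against 435 of all 4542 genes. Psmd3, a non-ATPase subunit of the lid, had the lowest p on the deposited scale. It was at 40.6, 33.3 and 43.3 in PIR+ KO and 27.3, 25 and 27.8 in PIR+ wt, without overlap, a change of 0.53 ± 0.23 (adjusted p = 0.561). Psmd4 came next, with values given above that did not overlap between PIR+ KO and PIR+ wt, at 0.55 ± 0.28 (adjusted p = 0.723). The lowest change was that of Psmb8, at -0.39 ± 0.22 (95% interval -0.84 to 0.05, adjusted p = 0.817) and -0.49 ± 0.17 after scaling (unadjusted p = 0.0075, the lowest of the members on that scale, adjusted p = 0.235), and its PIR+ KO libraries (37.7 to 51.7) overlapped its PIR+ wt libraries (42.5 to 68.4). In the authors' deposited table, Psmb8 had p = 0.016 for this comparison and was the 1 of 45 members under 0.05 (2.22%), against 4.84% of all tested genes with a p. Without overlap, 4 of 45 were higher in PIR+ KO and 0 lower, against 8.04% and 3.04% of all genes.

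In PIR- cells, 0 of 45 were called between KO and wt (1.30% of all genes were), and the median was 0.21, beside 0.20 over all genes tested. An unadjusted p under 0.05 was found for 9 of 45, against 629 of all 4542 genes tested. After scaling 0 were called (1.70% of all genes) and 5 had an unadjusted p under 0.05, against 556 of all 4542 genes. On the deposited scale Psma4 had the lowest p, at 44, 49.6 and 52.2 in PIR- KO and 30.2, 27.1 and 36.5 in PIR- wt. These did not overlap, and the change was 0.63 ± 0.21 (adjusted p = 0.133). Psmd6, a lid subunit, followed at 21.2, 33.4 and 30.9 in PIR- KO and 12.2, 21.7 and 20.2 in PIR- wt, which overlapped (0.65 ± 0.24, adjusted p = 0.198). Without overlap, 8 of 45 were higher in PIR- KO and 0 lower, against 14.4% and 1.01% of all genes. In the libraries whose labels match, 2 members were called, Psmd6 among them (1.33 against the 1 PIR- wt library left, adjusted p = 0.00883).

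No member was called for a difference of the KO effect between subsets. In the interaction 0 of 45 were called (0.572% of all genes were), 2 had an unadjusted p under 0.05, and after scaling 0 were called (0.749% of all genes) and 3 had one. The share of all genes with such an unadjusted p is not given here, so these counts are not read as a result. The lowest p on the deposited scale were those of Psmg4 and Psmb9, given above, and Psmb8 was at -0.53 ± 0.32 (95% interval -1.16 to 0.10, adjusted p = 0.923). With 3 libraries a group, intervals of this width do not show that the effects are alike.

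**Figure D5:**
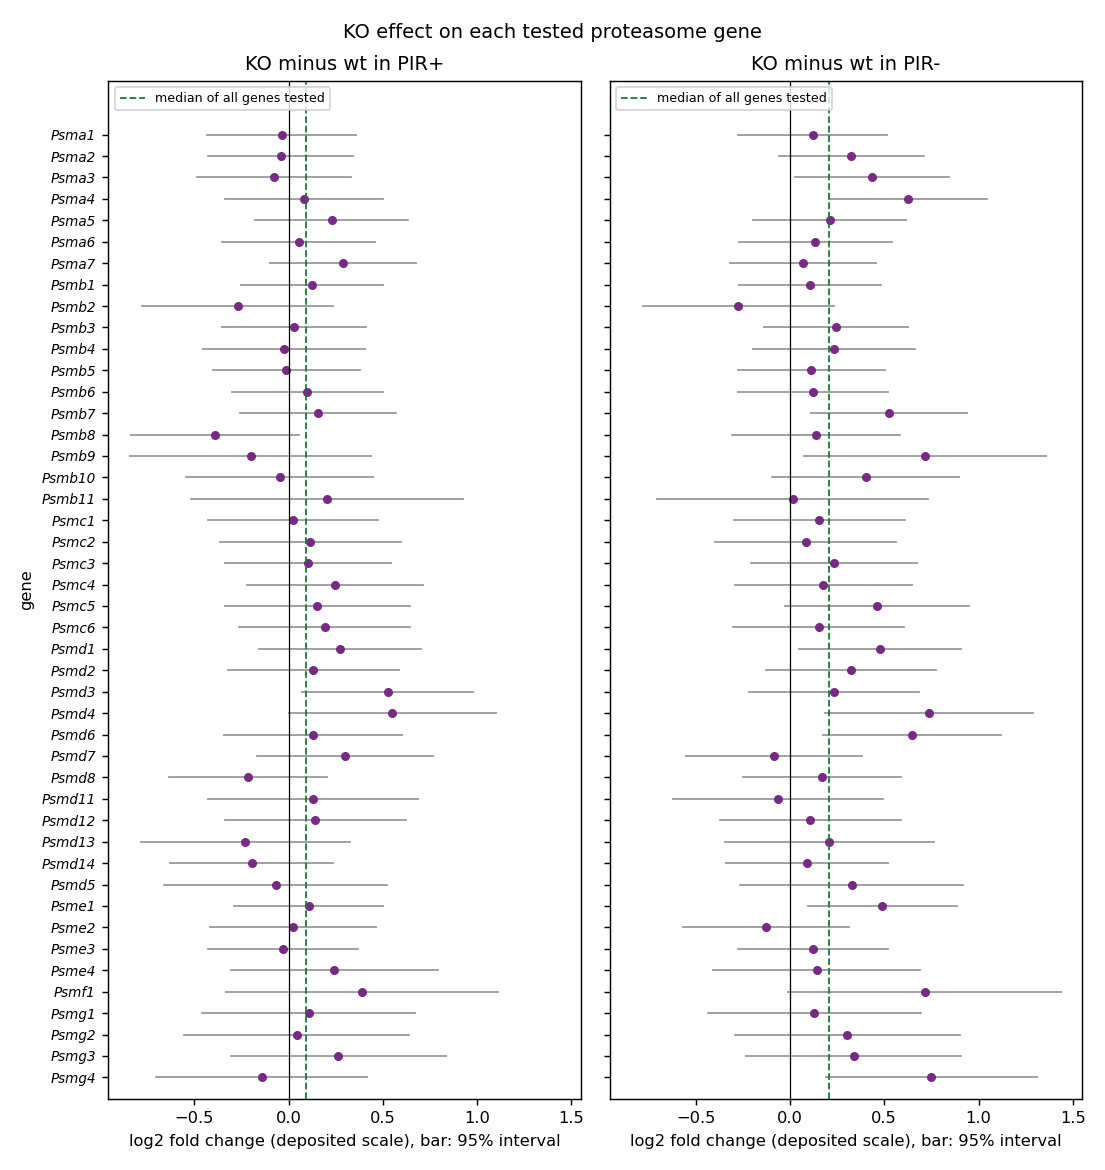
Log2 fold change of KO minus wt on the deposited scale for the 45 tested proteasome genes, in PIR+ and in PIR- cells; points are estimates, bars 95% intervals, and the dashed line is the median of all genes tested. No gene was called, most intervals include 0, and the points scatter around the medians of 0.09 in PIR+ and 0.20 in PIR-.

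Of 16 tested genes for other proteasome components and chaperones, 3 were called higher in PIR+ KO than in PIR- KO and 6 in PIR+ wt than in PIR- wt (22.5% and 40.6% of all genes), and 0 lower, with medians of 0.37 in KO and 0.50 in wt. After scaling 1 was lower in KO and 0 in wt, against 7.51% and 11.0% of all genes. Pomp, the maturation factor of the core, was called on both scales in both genotypes. It was at 81.2, 57.8 and 67.7 in PIR+ KO, 45.7, 48.7 and 52.9 in PIR+ wt, 32.3, 32.3 and 27.9 in PIR- KO and 19.1, 28.7 and 25.6 in PIR- wt, without overlap between subsets. Its change was 1.12 ± 0.22 in KO (limma adjusted p = 1.89e-05, scaled 0.73 with adjusted p = 0.00287) and 0.99 ± 0.22 in wt (adjusted p = 0.000124, scaled 0.49 with adjusted p = 0.0387). Zfand5, a ubiquitin-binding activator of the proteasome, was called on both scales in wt (1.19 ± 0.25, adjusted p = 9.82e-05) and on the deposited scale in KO (0.86 ± 0.25, adjusted p = 0.00721).

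Of 12 tested genes of antigen presentation, 6 were called higher in PIR+ KO than in PIR- KO and 7 in PIR+ wt than in PIR- wt (22.5% and 40.6% of all genes), and 0 lower, with medians of 0.73 in KO and 0.75 in wt, above the median gene. After scaling 0 were lower in KO and 1 in wt, against 7.51% and 11.0% of all genes. On both scales B2m, the light chain of MHC class I, was called in both genotypes, Irf1 in KO, and Tapbp and Calr in wt. B2m was at 173.9, 171.9 and 200.8 in PIR+ KO, 155.5, 157.2 and 180.3 in PIR+ wt, 101.2, 95.1 and 122 in PIR- KO and 72.6, 65.1 and 73.7 in PIR- wt, without overlap between subsets. Its change was 0.78 ± 0.18 in KO (limma adjusted p = 0.000428) and 1.21 ± 0.18 in wt (adjusted p = 2.46e-08). Irf1, an interferon-induced transcription factor, was at 15.1, 15.7 and 16.7 in PIR+ KO, 15.2, 11.8 and 16.3 in PIR+ wt, 2.6, 5.2 and 7.3 in PIR- KO and 6.4, 10.8 and 4.7 in PIR- wt, and again the subsets did not overlap. Tap1 and Tap2, the peptide transporter, did not reach the minimum for testing (0 to 7.6 and 0.5 to 6.8 over the 12 libraries), and Nlrc5 was listed at 0 in all. Markers of macrophages were higher in the same PIR+ libraries, with the sums given above, and their part in the inducible subunits and these genes was not tested.

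Among 8 tested regulators of proteasome gene transcription, 1 was called higher and 1 lower in PIR+ KO than in PIR- KO, and 3 higher and 1 lower in PIR+ wt than in PIR- wt. Of all genes, 22.5% were higher and 2.97% lower in KO, and 40.6% higher and 3.72% lower in wt. Ngly1, which processes the proteasome gene activator encoded by Nfe2l1, was lower on both scales (-1.22 ± 0.34 in KO, adjusted p = 0.00428, and -0.85 ± 0.34 in wt, adjusted p = 0.0348). Stat3 was higher on both scales in wt (1.51 ± 0.31, adjusted p = 4.04e-05) and on the deposited scale in KO (1.03 ± 0.31, adjusted p = 0.0075). Nfe2l1 itself did not reach the minimum for testing (3.2 to 8.4 over the 12 libraries). Of 23 tested genes of ubiquitin and its activation, 2 were called higher in PIR+ KO than in PIR- KO and 11 in PIR+ wt than in PIR- wt (22.5% and 40.6% of all genes), none of them on both scales. After scaling 0 were higher in either genotype, and 2 were lower in KO and 4 in wt, against 7.51% and 11.0% of all genes. Ube2c, the mitotic ubiquitin-conjugating enzyme, was lower on both scales in wt (-0.85 ± 0.20, adjusted p = 0.000441). No gene of these 4 lists was called between KO and wt on the deposited scale, and Calr was called lower in PIR+ KO than in PIR+ wt after scaling (-0.43, adjusted p = 0.02).

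The 3 proteasome genes that were not tested were low. Psma8, the alpha subunit of the testis proteasome, was listed at 0 in 9 of 12 libraries and at 0.6 to 1.5 in the other 3. Psmd9, a chaperone of the base, was at 5.3 to 10.3 in PIR+ KO, 5.1 to 7.8 in PIR+ wt, 5.8 to 8.8 in PIR- KO and 2.7 to 7 in PIR- wt. Psmd10, also a chaperone of the base, was at 7.8 to 10.3 in PIR+ KO, 4.6 to 8.9 in PIR+ wt, 3.2 to 6.3 in PIR- KO and 3.1 to 6.2 in PIR- wt. For Psmd10 the KO subsets did not overlap, while those of Psmd9 did in both genotypes.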

How the data were processed

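Per the labels' protocols, sorted cells were lysed in tubes with ERCC spike-in RNA added, reverse-transcribed with an oligo-dT primer holding a molecular barcode, and amplified after template switching. The table the authors deposited holds molecule counts that were divided by 1 factor per library and rounded to 1 decimal, a signal rather than raw counts. The sources used here name neither that factor nor the counting tool. TopHat2, DESeq2 and mm10 are named, without versions, in the submitters' processing notes. The authors also deposited p-values of their own for 2 comparisons. Values correspond to whole molecules for 93.0% to 94.2% of those under 15 in a library (tolerance 0.055), so no count test was run.

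The 4542 genes that reached 10 in 3 or more libraries were fitted with limma (3.58.1, R 4.3.3) on log2(value + 1), using the trended option and means for the 4 groups over all 12 libraries. Calls were made at 0.05 after Benjamini-Hochberg adjustment over these genes, separately per comparison, and every adjusted p is from this fit. Fold changes are log2 of (value + 1), tend to understate the change of low genes, and are given with the SE of the fit. Alternatives were median-of-ratios scaling, a pseudocount of 0.1, no filter or a minimum of 20, the replicate number as a block, only libraries with the same PIR sign in title and sort markers, no globin-rich libraries, and each library left out. Combinations of the scaling with the last 4 were added after seeing the data. Values were given in every library for the catalytic pairs, Psme1 and Psme2, the members called on both scales, those with the 2 lowest p per comparison and the highest mean per subclass, and other genes were chosen after their values were seen. Members and lists were chosen with earlier results of these data known. Locations are from GENCODE M21 (GRCm38), and figures were drawn with matplotlib 3.10.9. The number of molecules limits the precision, and the intervals given are those of the fit.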

Additional observations from a re-analysis of the deposited data

How the results depend on the processing

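The counts of called members depended on the scale and on a few libraries, and the cause was not tested. For PIR+ minus PIR- in wt, 21 members were called: 6 after median-of-ratios scaling, 9 in the libraries whose labels match, 4 without the globin-rich libraries and 11 to 23 without 1 library. With the scaling these became 1 in the libraries whose labels match (503 of 4542 genes), 1 (Psme1) without the globin-rich libraries (589 of 4542 genes) and 4 to 6 without 1 library. In KO, 9 were called: 4 after scaling, 4 without the globin-rich libraries and 5 to 13 without 1 library, and with the scaling 0 in the libraries whose labels match, 3 without the globin-rich libraries and 0 to 4 without 1 library. Of all genes, 25.5% were called in KO in either direction, 15.6% after scaling and 14.6% to 31.2% without 1 library. With the scaling this share was 11.9% to 17.4% without 1 library. In wt, 44.4% of all genes were called in either direction, 22.6% after scaling and 29.1% to 45.9% without 1 library. With the scaling the wt share was 18.1% to 22.6% without 1 library. Leaving out the globin-rich libraries left 1 PIR- wt library, assumed to vary like the others. For KO minus wt in PIR- cells, 0 became 2 in the libraries whose labels match (4.44%, against 2.31% of all genes). The median of the members minus that of all genes in wt was -0.02 and moved to 0.19 with no filter. After scaling the change of Psmb6 reversed to -0.25 in wt and -0.16 in KO, that of Psmb9 in KO to -0.17 and that of Psmb7 in KO to -0.23, and Psmb7 in KO was -0.032 to 0.29 without 1 library, the lowest without PIR+ KO 3. None of these was called on both scales.

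The titles give replicates 1 to 3 in each group. With that number as a block, 28 members were called in wt (62.2%, against 53.0% of all genes), 14 in KO (31.1%, against 37.1%) and 2 for KO minus wt in PIR- cells (4.44%, against 4.60%), and with the scaling as well 5 in wt (11.1%, against 22.1%) and 3 in KO (6.67%, against 15.5%). Gene by gene, same-numbered libraries were not more alike than others. Of 18 same-numbered pairs 1 had a correlation of deviations over 0.1 (-0.11 to 0.16, other pairs -0.13 to 0.18), and 4 of 12 libraries correlated best with their own number. This correlation cannot show a shift shared by all genes of a library. Replicate 3 had the highest library sum in each group (284648 in PIR+ KO, 253582 in PIR+ wt, 222700 in PIR- KO and 187525 in PIR- wt). Whether the numbers pair the samples is thus not settled. A pseudocount of 0.1 and the minimum of 20 changed no count by over 1.5 times. Depth limits Psmd9, Psmd10 and Psmf1, whose values were under 15 in all 12 libraries, and Psmb9, in 10 of 12.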
